A study of Mus musculus with 20 samples.

Results

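The data describe 10 genes that make, hold back and receive transforming growth factor beta (TGF-beta). They were chosen by name for these roles among 43422 genes listed for each mouse, and all 10 were found. The 3 ligand genes were Tgfb1, Tgfb2 and Tgfb3, the 3 receptor genes were Tgfbr1, Tgfbr2 and Tgfbr3, and the 4 genes of latent TGF-beta binding proteins were Ltbp1, Ltbp2, Ltbp3 and Ltbp4. RNA of the abdominal aorta was sequenced on day 14 in 20 mice of the C57BL/6 strain (C57Bl/6NCrl in the study's methods), 5 in each of 4 groups. WT and Plod1-/- mice received either saline or, at 1000 ng/kg per minute, angiotensin II (Ang II). Plod1 encodes lysyl hydroxylase 1 (LH1), an enzyme that hydroxylates lysines of collagen before crosslinking. The study asked whether its absence promotes dissecting abdominal aortic aneurysm during infusion of Ang II, a peptide hormone that raises blood pressure. It reported such aneurysms in more Plod1-/- than WT mice under Ang II, counted later than day 14. Whether the sequenced aortas were dissected is not stated there. The knockout was germline, so every cell type of the aorta lacked the gene, and the labels give an age of 6 months for all groups, whereas the study's methods describe younger male mice.

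TGF-beta ligands are made as precursors whose cut propeptide stays wrapped around the growth factor and keeps it inactive. In most tissues the propeptide is tied to a latent TGF-beta binding protein, which anchors the complex to fibrillin microfibrils and elastic fibers, and integrins, thrombospondin-1 or proteases set the ligand free. The free ligand binds the type II receptor TGFBR2, which phosphorylates the type I receptor TGFBR1, and the type III receptor TGFBR3 (betaglycan) presents ligand, TGF-beta 2 in particular. The activated type I receptor phosphorylates SMAD2 and SMAD3, and defects of some genes of this pathway in people cause inherited aneurysms of the aorta.

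Values were FPKM (fragments scaled to transcript length and library size), which are per length and so can be compared between genes. limma was fitted to log2(FPKM + 1), on which changes of weakly expressed genes look smaller than they are, with two-sided tests, and "passed" means a Benjamini-Hochberg adjusted p below 0.05 over all genes tested. A gene was tested where 5 or more of the mice fitted reached 1 FPKM, and all 10 genes met this in every comparison. Labels do not say whether same-group mice came from different litters or cages. The genotype labels fitted the data, since Plod1 lay between 22.8 and 29.7 FPKM in WT mice and at no more than 0.0415 FPKM in Plod1-/- mice. The tissue label fitted in saline-treated WT mice as well. There 5 smooth muscle markers (Myh11, Cnn1, Lmod1, Smtn and Mylk) summed to 2410 to 3120 FPKM. In Ang II-treated WT mice these markers summed to 981 to 2910 FPKM and 5 brown adipocyte markers to 551 to 4380 FPKM, so those libraries were not of the aortic wall alone. The total depth of each library is unknown, and the relative depth read from the spacing of low values ran from 0.91 to 1.08. Of the 20 libraries 2 stood apart, Plod1-/- saline replicate 5 with Xist at 15.1 FPKM and Ang II-treated Plod1-/- replicate 1 with Xist at 7.93 FPKM, in a study of male mice. Y-linked Ddx3y was at 0.0961 FPKM in the first and at 1.25 FPKM in the second, against 7.34 to 14 FPKM in the other libraries. For comparisons of 2 groups that include Plod1-/- mice, the genes of the 10 that passed are therefore also given without these libraries. Shares, marker sums, correlations and pathway lists include them.

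Promoter sequences are shown for the 4 genes whose change under Ang II, or whose difference between Ang II-treated genotypes, passed in every alternative analysis (Tgfb1, Tgfbr1, Ltbp1 and Ltbp4). They come from RefSeq on GRCm38.p6, run 5′ to 3′ on the strand of the gene and, for all but Ltbp4, end 1 base before the start site, with capitals for matches to the SMAD motif CAGAC on either strand (GTCTG on the other strand). Tgfb1 is on the plus strand of chromosome 7 and its window is chr7:25686752-25687001. Tgfbr1 is on the plus strand of chromosome 4, and the window before its upstream start is chr4:47352972-47353221. Ltbp1 is on the plus strand of chromosome 17, with the window chr17:75005279-75005528 before its upstream start. Ltbp4 is on the minus strand of chromosome 7, and for it the 170 bases that lie outside its annotated exons are shown, chr7:27337693-27337862, a stretch that stops short of the start site.
Tgfb1: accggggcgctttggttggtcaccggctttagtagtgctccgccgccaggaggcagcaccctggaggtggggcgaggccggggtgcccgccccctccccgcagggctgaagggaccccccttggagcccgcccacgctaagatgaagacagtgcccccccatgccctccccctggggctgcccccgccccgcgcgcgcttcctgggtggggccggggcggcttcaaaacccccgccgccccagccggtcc
Tgfbr1: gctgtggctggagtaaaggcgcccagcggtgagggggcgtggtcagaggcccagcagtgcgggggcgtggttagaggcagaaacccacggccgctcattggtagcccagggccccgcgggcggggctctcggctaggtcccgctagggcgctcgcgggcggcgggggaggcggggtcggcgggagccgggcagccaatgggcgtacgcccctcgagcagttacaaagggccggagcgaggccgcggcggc
Ltbp1: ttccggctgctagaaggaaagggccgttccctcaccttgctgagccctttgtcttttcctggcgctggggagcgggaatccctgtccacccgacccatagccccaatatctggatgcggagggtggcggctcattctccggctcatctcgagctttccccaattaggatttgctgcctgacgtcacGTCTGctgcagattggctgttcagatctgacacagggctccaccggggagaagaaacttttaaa
Ltbp4: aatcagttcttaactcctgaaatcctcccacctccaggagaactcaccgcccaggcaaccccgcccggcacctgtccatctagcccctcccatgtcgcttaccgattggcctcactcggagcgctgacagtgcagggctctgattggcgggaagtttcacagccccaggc

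RefSeq promoters were matched for 8 of the 10 genes, with 12 promoters between them; those of Tgfb3 and Tgfbr3 were not used here. In windows of 250 bases before the start, CAGAC was present in 7 of the 12 promoters, which belonged to 6 of the 8 genes, and in 42.2% of 32851 mouse promoters. The window of Ltbp1 printed above held 1 match, 64 bases before the start, while those of Tgfb1, Tgfbr1 and Ltbp4 held none. The AP-1 motif TGANTCA was in 0 of the 12 promoters and in 6.75% of all promoters. These matches are letters in a window and were not measured as binding sites.

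Each gene lies at 1 locus of GRCm38 in the GENCODE annotation. The ligand genes are on chromosome 7 (Tgfb1, ENSMUSG00000002603, 25687002 to 25705077), chromosome 1 (Tgfb2, ENSMUSG00000039239, 186622792 to 186705989) and chromosome 12 (Tgfb3, ENSMUSG00000021253, 86056745 to 86079041). The receptor genes are on chromosome 4 (Tgfbr1, ENSMUSG00000007613, 47353222 to 47414931), chromosome 9 (Tgfbr2, ENSMUSG00000032440, 116084293 to 116175360) and chromosome 5 (Tgfbr3, ENSMUSG00000029287, 107106570 to 107289629). The latent binders are on chromosome 17 (Ltbp1, ENSMUSG00000001870, 75005568 to 75392512), chromosome 12 (Ltbp2, ENSMUSG00000002020, 84783212 to 84876532), chromosome 19 (Ltbp3, ENSMUSG00000024940, 5740904 to 5758532) and chromosome 7 (Ltbp4, ENSMUSG00000040488, 27305136 to 27337692).

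In the saline-treated WT aorta the order of levels was led by a latent binder. Ltbp4 had the highest mean, 173 ± 30.7 FPKM (SD, n = 5), and Tgfb1 the lowest, 6.17 ± 1.78 FPKM (SD, n = 5). Between them, Tgfb3 averaged 102 ± 54.9 FPKM, Ltbp1 74.6 ± 7.46 FPKM and Ltbp3 68.9 ± 9.56 FPKM (each SD, n = 5). The values of neighbors overlapped among these 4 leading genes, while every value of Ltbp3 was above every value of the next gene, Tgfbr1. A group of 3 genes followed, Tgfbr1 at 24.8 ± 5.6 FPKM, Ltbp2 at 21.9 ± 3.37 FPKM and Tgfbr2 at 20.5 ± 2.38 FPKM (each SD, n = 5), and neighbors among them overlapped as well. Tgfbr3 averaged 9.78 ± 1.49 FPKM and Tgfb2 8.88 ± 3.58 FPKM (each SD, n = 5). Each value of Tgfbr2 exceeded each value of Tgfbr3, and Tgfbr3, Tgfb2 and Tgfb1 overlapped in sequence.

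Within a role, 1 gene often held most of the sum of FPKM. Tgfb3 made up 85.6% ± 5 (SD, n = 5) of the 3 ligands in saline-treated WT mice and 67.3% ± 12 (SD, n = 5) in Plod1-/- mice under Ang II, in which Tgfb1 made up 21.5% ± 10.9 (SD, n = 5). Ltbp4 made up 50.8% ± 3.46, 50.2% ± 8.02 and 53.5% ± 4.49 (SD, n = 5) of the 4 latent binders in saline-treated WT, Ang II-treated WT and saline-treated Plod1-/- mice, and 27.6% ± 9.79 (SD, n = 5) in Plod1-/- mice under Ang II. Its share in the last group ran from 17.7% to 40.5%, and Ltbp3 held the highest mean share there, 37% ± 7.66 (SD, n = 5). Among the receptors the share of Tgfbr1 in WT mice was 44.8% ± 6.77 with saline and 26.6% ± 5.45 with Ang II (each SD, n = 5). In Plod1-/- mice it held 40.2% ± 4.7 and 24.9% ± 9.55 (each SD, n = 5). Shares were not tested.

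**Figure D1:**
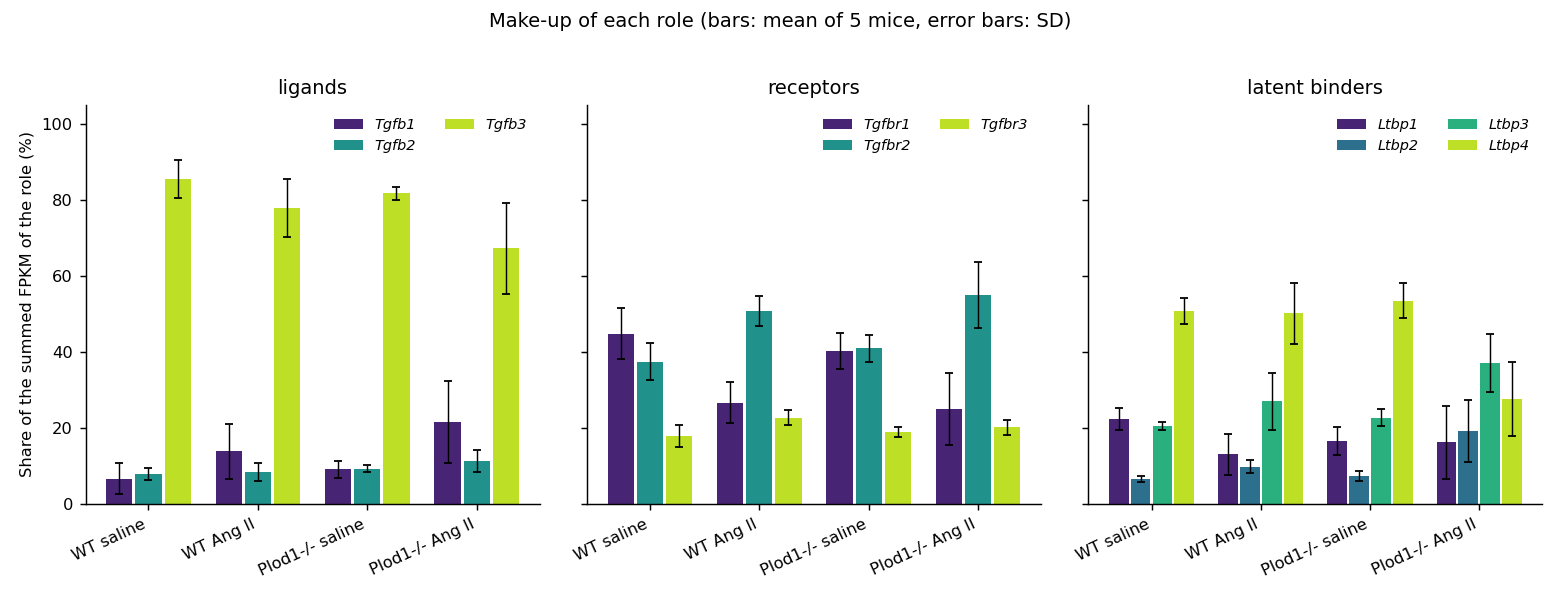
Bars give the mean share (%) of each gene in the summed FPKM of its role in the 4 groups, with the SD of 5 mice as error bars. Tgfb3 is the tallest bar of the ligands in every group, and the bar of Ltbp4 is 50.2% to 53.5% in 3 groups and 27.6% in Ang II-treated Plod1-/- mice.

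Saline-treated mice were compared first, to see what the loss of LH1 alone changed. Ltbp2, whose product binds fibrillin but not the latent ligands, was the 1 gene of the 10 that passed, and it was higher in Plod1-/- mice. In saline-treated mice 6.55% of the 11999 genes tested passed. The FPKM of Ltbp2 was 16.9, 22.9, 21.3, 22.4 and 26.3 in WT mice and 32.5, 33.5, 29.5, 34.8 and 28.4 in Plod1-/- mice. All 5 Plod1-/- mice were above all 5 WT mice, and 9.52% of the genes tested had no overlap between these genotypes. In log2 units Ltbp2 was 0.52 higher (SE 0.11, limma adjusted p = 0.0277), and 0.56 (adjusted p = 0.0418) without both Xist libraries. The result was lost in 4 of 10 analyses that left out 1 mouse, those without WT replicates 2 or 4 or Plod1-/- replicates 2 or 4 (adjusted p = 0.0571, 0.0513, 0.062 and 0.0642). Without a filter it was lost too (adjusted p = 0.0827), and likewise with replicate number as a block (0.076) and with all 4 groups in 1 fit (0.222). Among the markers, 3 of 5 fibroblast markers passed as lower in Plod1-/- mice (Pdgfra, Col14a1 and Pi16, with log2 fold changes of -0.59, -0.68 and -1.13), and their sum ran from 380 to 594 FPKM in WT and from 163 to 383 FPKM in Plod1-/- mice. Of 3 tested platelet markers 1 passed as lower (Pf4, -1.66), while Ppbp (-1.21) and Gp1bb (0.47) did not pass. Of 6 immediate early genes 1 passed as lower (Fosb, -2.54). The part of these markers in the difference was not tested.

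The median log2 fold change over the 10 genes was -0.1, beside -0.007 over all genes tested. Ltbp3, which binds all 3 latent ligands, had a log2 fold change of 0.54 (95% interval 0.18 to 0.90, limma adjusted p = 0.0693), and it passed without Plod1-/- saline replicate 1 (0.68, adjusted p = 0.0244). For Ltbp4 it was 0.46 (95% interval 0.08 to 0.84, adjusted p = 0.12) and for Tgfbr1 -0.40 (95% interval -0.72 to -0.09, adjusted p = 0.104). The remaining 6 genes had log2 fold changes from -0.50 (Tgfb3) to 0.19 (Tgfb1), with adjusted p-values from 0.301 to 0.8. Their intervals included 0, and the widest, that of Tgfb3, ran from -1.17 to 0.16.

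**Figure D2:**
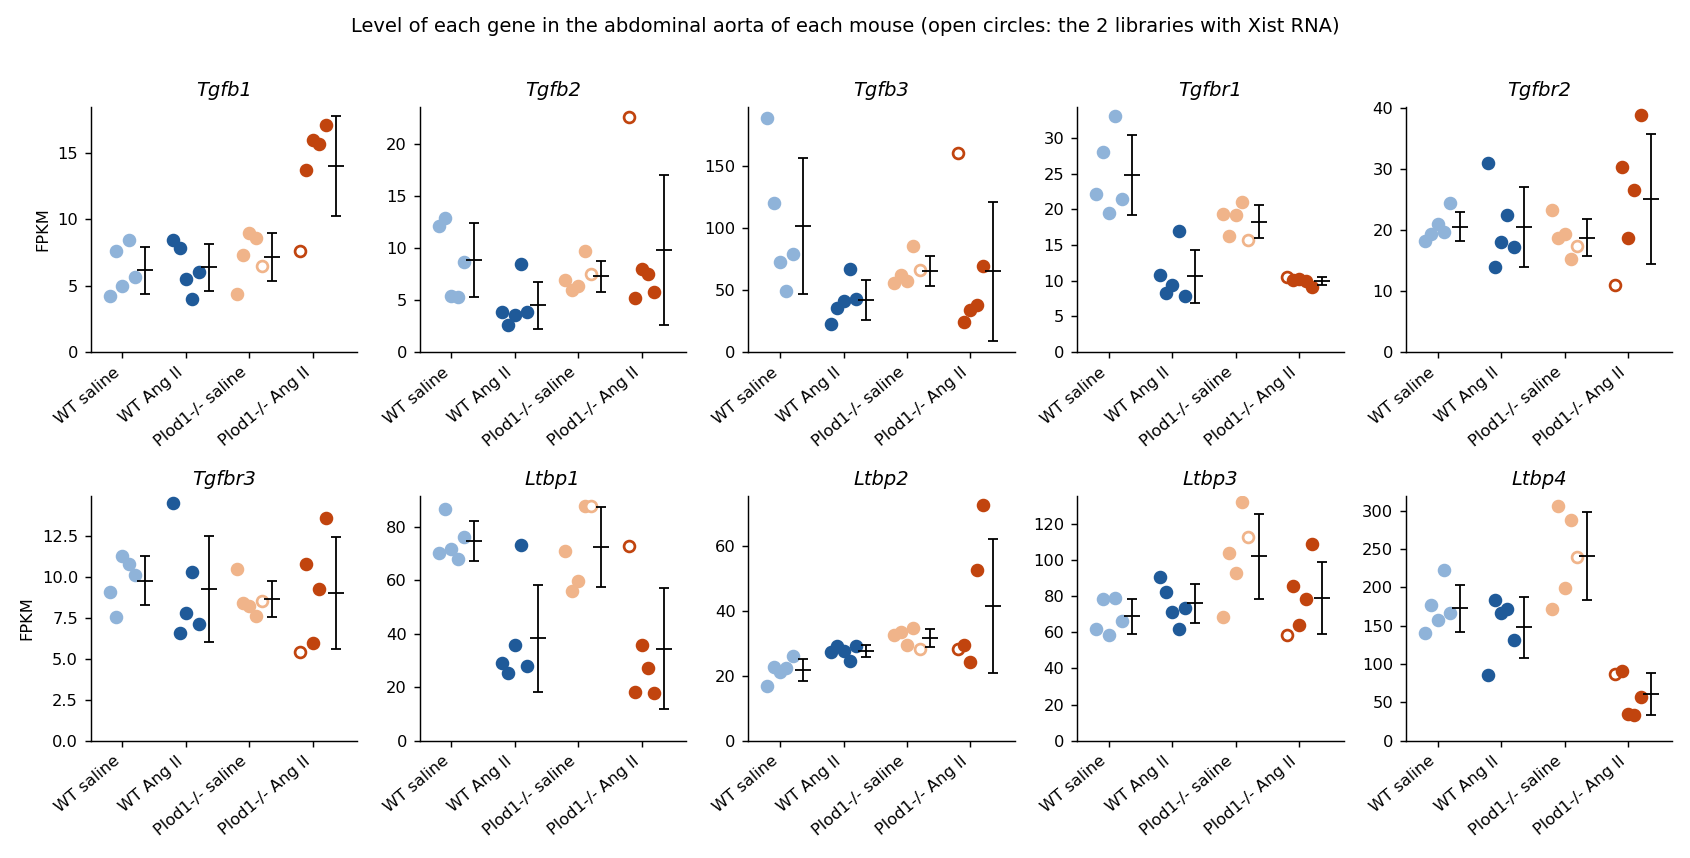
Each panel plots the FPKM of 1 gene in every mouse by group, with the mean and SD of 5 mice in black and open circles for the 2 libraries with Xist RNA. All Ang II-treated mice lie below the saline-treated mice of their genotype for Tgfbr1, and all Ang II-treated Plod1-/- mice lie below the saline-treated Plod1-/- mice for Ltbp4.

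The response of the WT aorta to Ang II was compared next. Of the 10 genes 5 passed, 4 with lower and 1 with higher expression under Ang II, while 38% of the 11994 genes tested passed. The genes that fell were Tgfbr1, Ltbp1, Tgfb3 and Tgfb2, and the gene that rose was Ltbp2. The median log2 fold change was -0.19 over the 10 genes and -0.138 over all genes tested. The treatments were without overlap in 1 of the 10 genes, beside 17.3% of all genes tested.

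Tgfbr1, the type I receptor that carries the signal to SMAD2 and SMAD3, was the gene without overlap. Its FPKM was 22.1, 28.1, 19.5, 33.1 and 21.5 in saline-treated and 10.8, 8.24, 9.33, 16.9 and 7.82 in Ang II-treated WT mice. On the log2 scale Tgfbr1 changed by -1.18 (SE 0.21, limma adjusted p = 0.00273), which lay between -1.35 and -1.07 in all 18 alternative analyses, each of which passed. Ltbp1, a latent binder that holds all 3 ligands in the matrix, had an FPKM of 70.4, 86.8, 71.6, 67.9 and 76.2 under saline and 29.1, 25.5, 35.7, 73.4 and 27.8 under Ang II. Ang II-treated replicate 4, at 73.4 FPKM, lay within the saline-treated values, and the other 4 lay below all of them. Ltbp1 fell by 1.05 log2 units (SE 0.24, limma adjusted p = 0.00912), and -1.31 (adjusted p = 3.14e-05) without that mouse. It passed in all 18 alternative analyses.

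The ligands that fell in WT mice were Tgfb3 and Tgfb2, both expressed by mesenchymal cells. The FPKM of Tgfb3 was 189, 120, 72.5, 49.5 and 78.7 in saline-treated and 22.8, 35.1, 41.1, 67.2 and 42.9 in Ang II-treated WT mice. Its saline-treated values spread over a wide range, and 1 of them, 49.5 FPKM, lay below Ang II-treated replicate 4. Tgfb3 fell by 1.20 log2 units (SE 0.35, limma adjusted p = 0.0229), and the result was lost in 2 of 10 analyses that left out 1 mouse, those without saline-treated replicate 2 (adjusted p = 0.0551) or Ang II-treated replicate 2 (0.0555). Without a filter it was lost too (adjusted p = 0.0703), and likewise with replicate number as a block (0.0644). The FPKM of Tgfb2 was 12.1, 12.9, 5.42, 5.32 and 8.7 under saline and 3.86, 2.6, 3.6, 8.48 and 3.89 under Ang II. Its highest Ang II-treated value again came from replicate 4, and the other 4 were below all saline-treated values. Tgfb2 fell by 0.85 log2 units (SE 0.29, limma adjusted p = 0.0391), and it was lost in 7 of 10 analyses that left out 1 mouse (all but those without saline-treated replicates 3 or 4 or Ang II-treated replicate 4), with adjusted p-values from 0.0642 to 0.0981. With no filter it had an adjusted p of 0.108 and with replicate number as a block one of 0.0808.

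Ltbp2 rose from 21.9 ± 3.37 to 27.6 ± 1.92 FPKM (each SD, n = 5). Its Ang II-treated values were 27.3, 29.2, 27.7, 24.6 and 29.4 FPKM, of which replicate 4 lay within the saline-treated range and the others above it. Ltbp2 thus rose by 0.33 log2 units (SE 0.12, limma adjusted p = 0.0486), close to the threshold, and the result was lost in 8 of 10 analyses that left out 1 mouse (all but those without saline-treated replicate 5 or Ang II-treated replicate 4), with adjusted p-values from 0.0696 to 0.108. It was lost with no filter (0.0983), with the block (0.0735) and with all 4 groups in 1 fit (0.218) as well. The other 5 genes did not pass. Tgfb1, the ligand that platelets and immune cells store or secrete, averaged 6.17 ± 1.78 FPKM under saline and 6.38 ± 1.8 FPKM under Ang II (each SD, n = 5), a log2 fold change of 0.04 with a 95% interval from -0.41 to 0.50. The intervals of Tgfbr2 (-0.44 to 0.36), Tgfbr3 (-0.54 to 0.31), Ltbp3 (-0.16 to 0.44) and Ltbp4 (-0.72 to 0.20) included 0, with log2 fold changes of -0.04, -0.12, 0.14 and -0.26.

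Cell type markers moved between these groups. The sum of the 5 smooth muscle markers ran from 2410 to 3120 FPKM under saline and from 981 to 2910 FPKM under Ang II, where its highest value was that of replicate 4, and 2 of the 5 markers passed as lower. The sum of 5 brown adipocyte markers ran from 14.2 to 383 FPKM under saline and from 551 to 4380 FPKM under Ang II, and 5 of 5 passed as higher. The sum of 6 immediate early genes (Fos, Fosb, Egr1, Ier2, Junb and Nr4a1), which respond within minutes to stimuli and to handling of tissue, ran from 342 to 2080 FPKM under saline and from 73.6 to 125 FPKM under Ang II, and 6 of 6 passed as lower. Of the other lists, 4 of 4 tested white adipocyte, 3 of 4 tested skeletal muscle and 2 of 5 macrophage markers passed as higher. The macrophage sum ran from 172 to 312 FPKM under saline and from 284 to 1670 FPKM under Ang II. Of 5 endothelial markers 2 passed as higher and 1 as lower, and 1 of 5 fibroblast markers passed as lower. No smooth muscle, brown adipocyte or immediate early gene stayed below 0.1 FPKM in either group. The mitochondrial share of the FPKM sum averaged 11.1% under saline and 23.3% under Ang II. Their part in the changes of the 10 genes was not tested, and in whole tissue fewer cells of a type and less RNA per cell cannot be told apart.

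In Plod1-/- mice, Ang II was followed by a rise of 1 ligand and a fall of 1 receptor and 2 latent binders. Of the 10 genes 4 passed, Tgfb1 with higher and Tgfbr1, Ltbp1 and Ltbp4 with lower expression, and 43.8% of the 12333 genes tested passed. The median log2 fold change was -0.17 over the 10 genes and 0.053 over all genes tested. The treatments were without overlap in 2 of the 10 genes (Tgfbr1 and Ltbp4), beside 29.2% of all genes tested.

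Ltbp4, a latent binder of elastic fibers that is needed for elastic fiber assembly, had an FPKM of 172, 306, 199, 288 and 239 in saline-treated and 87.5, 90.6, 35, 34.1 and 57.4 in Ang II-treated Plod1-/- mice. Even the highest Ang II-treated value was below the lowest saline-treated value. In log2 units Ltbp4 changed by -2.05 (SE 0.31, limma adjusted p = 0.000483), the largest in size among the 10 genes in any of the 4 comparisons of groups. It was -2.21 (adjusted p = 0.000863) without both Xist libraries and lay between -2.41 and -1.88 in all 19 alternative analyses. Tgfb1 moved the other way, with an FPKM of 4.38, 7.33, 8.94, 8.62 and 6.48 under saline and 7.64, 13.7, 16, 15.7 and 17.1 under Ang II. Replicate 1 of the Ang II-treated mice lay within the saline-treated values, and the other 4 lay above them. Tgfb1 rose by 0.87 log2 units (SE 0.23, limma adjusted p = 0.0108), and 1.03 (adjusted p = 0.00245) without both Xist libraries. It passed in all 19 alternative analyses.

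Tgfbr1 fell in Plod1-/- mice too, from 19.4, 16.2, 19.2, 21 and 15.7 FPKM to 10.5, 10.1, 10.2, 9.91 and 9.1 FPKM. The Ang II-treated values of Tgfbr1 lay close together, with a coefficient of variation that is the smallest of the 10 genes in that group. In log2 units this was a change of -0.81 (SE 0.10, limma adjusted p = 0.000152), and -0.88 (adjusted p = 0.000197) without both Xist libraries. Ltbp1 had an FPKM of 71, 55.9, 59.8, 87.9 and 87.7 under saline and 72.9, 18.3, 35.7, 27.3 and 17.9 under Ang II. Ang II-treated replicate 1, at 72.9 FPKM, was the 1 mouse within the saline-treated range. For Ltbp1 a log2 change of -1.23 resulted (SE 0.34, limma adjusted p = 0.0147), and -1.54 (adjusted p = 0.000364) without that replicate. Without both Xist libraries the change of Ltbp1 was -1.47 (adjusted p = 0.0013).

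**Figure D3:**
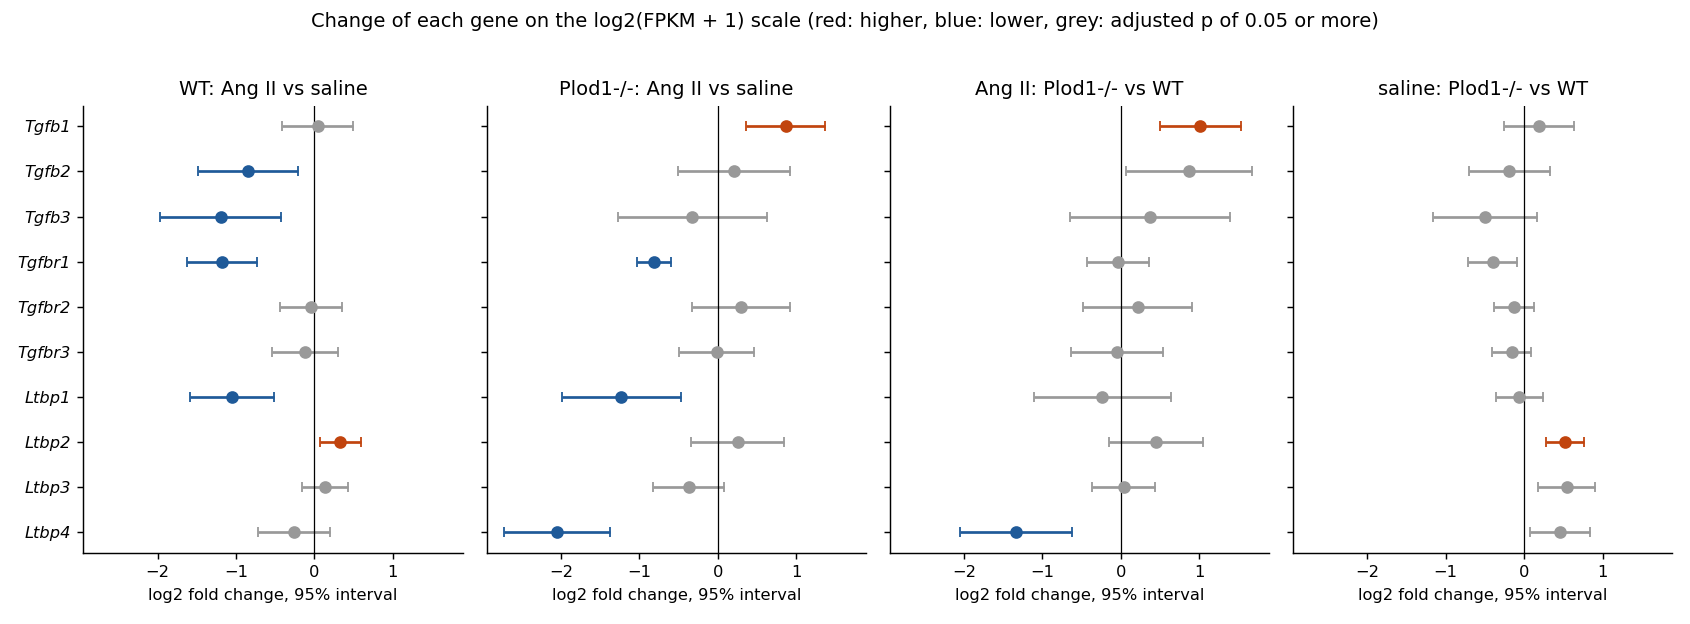
Points give the log2 fold change of each gene on the log2(FPKM + 1) scale in 4 comparisons of 5 against 5 mice, and bars give the 95% interval from limma. Tgfbr1 and Ltbp1 are lower under Ang II in both genotypes, whereas Ltbp4 is at -0.26 in WT and -2.05 in Plod1-/- mice and Tgfb1 at 0.04 and 0.87.

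The other 6 genes did not pass between the Plod1-/- groups, and for several of them replicate 1 held the extreme value. The Ang II-treated FPKM of Tgfb3 was 161, 24.3, 33.9, 37.7 and 69.7, against 55.3 to 85.6 under saline. With replicate 1 its log2 fold change was -0.32 (95% interval -1.27 to 0.63, limma adjusted p = 0.575), and without that mouse it was -0.73 and passed (adjusted p = 0.0423). Tgfb2 was at 22.6, 5.17, 7.98, 7.51 and 5.73 FPKM under Ang II, with a log2 fold change of 0.21 (95% interval -0.51 to 0.92) that became -0.13 without replicate 1. For Tgfbr2, the type II receptor that binds the ligand first, the Ang II-treated FPKM was 10.9, 30.4, 18.7, 26.6 and 38.8. Here replicate 1 was the lowest of its group, and the log2 fold change of 0.30 (95% interval -0.33 to 0.93) became 0.56 (adjusted p = 0.0366) without it. Both Tgfb3 and Tgfbr2 failed the threshold when both Xist libraries were left out (adjusted p = 0.0758 and 0.0731). Ltbp2 ran from 24.3 to 72.9 FPKM under Ang II, with a log2 fold change of 0.26 (95% interval -0.34 to 0.85). Ltbp3 had a log2 fold change of -0.37 (95% interval -0.82 to 0.09) and Tgfbr3 of -0.01 (95% interval -0.49 to 0.47).

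Replicate 1 also differed from the other Ang II-treated Plod1-/- mice in its markers. Its smooth muscle sum was 2370 FPKM, against 421 to 770 FPKM in the others, and its macrophage sum was 799 FPKM, against 2170 to 4490 FPKM. Its mitochondrial share of the FPKM sum was 21.1%, against 9.23% to 13.1%. In Plod1-/- mice as a whole, the smooth muscle sum ran from 2740 to 3400 FPKM under saline and from 421 to 2370 FPKM under Ang II, and 5 of 5 markers passed as lower. The macrophage sum ran from 81.6 to 361 FPKM under saline and from 799 to 4490 FPKM under Ang II, with 5 of 5 markers higher. The platelet sum ran from 12.1 to 30.5 FPKM and from 152 to 984 FPKM, with 4 of 5 markers higher. No marker of these 3 lists stayed below 0.1 FPKM in either group. All 5 neutrophil and all 5 red blood cell markers passed as higher as well, and the neutrophil sum was at most 3.02 FPKM under saline and 156 to 723 FPKM under Ang II. The red blood cell sum ran from 60 to 1520 FPKM and from 763 to 9720 FPKM. Their part in the changes of Tgfb1, Ltbp1 and Ltbp4 was not tested.

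Across all 20 mice the levels of these genes ran beside the marker sums, which is given here as a description of mice that share groups and libraries. The Pearson r with the smooth muscle sum, on a log2 scale, was 0.896 for Ltbp1, 0.842 for Ltbp4 and -0.81 for Tgfb1. Taken as deviations from the 4 group means it was 0.835, 0.483 and -0.754. Within groups Ltbp1 and Tgfb1 thus ran with this sum in opposite directions. Ang II-treated Plod1-/- replicate 1 and Ang II-treated WT replicate 4 had the highest smooth muscle sum, the highest Ltbp1 and the lowest Tgfb1 of their groups. No r was computed without these mice, so their weight in the values within groups is unknown. With the macrophage sum r was -0.924 for Ltbp4 and 0.764 for Tgfb1, and -0.705 and 0.491 as deviations from the group means. Other lists gave similar values. For Ltbp4 r was -0.920 with the neutrophil, -0.889 with the platelet and -0.848 with the red blood cell sum, and -0.641, -0.541 and -0.591 within groups. For Tgfb1 and the platelet sum it was 0.791, and 0.577 within groups. For Tgfbr1 and the smooth muscle sum, r was 0.711 over the 20 mice and 0.292 within groups, and with the white adipocyte sum it was -0.891 and -0.641.

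**Figure D4:**
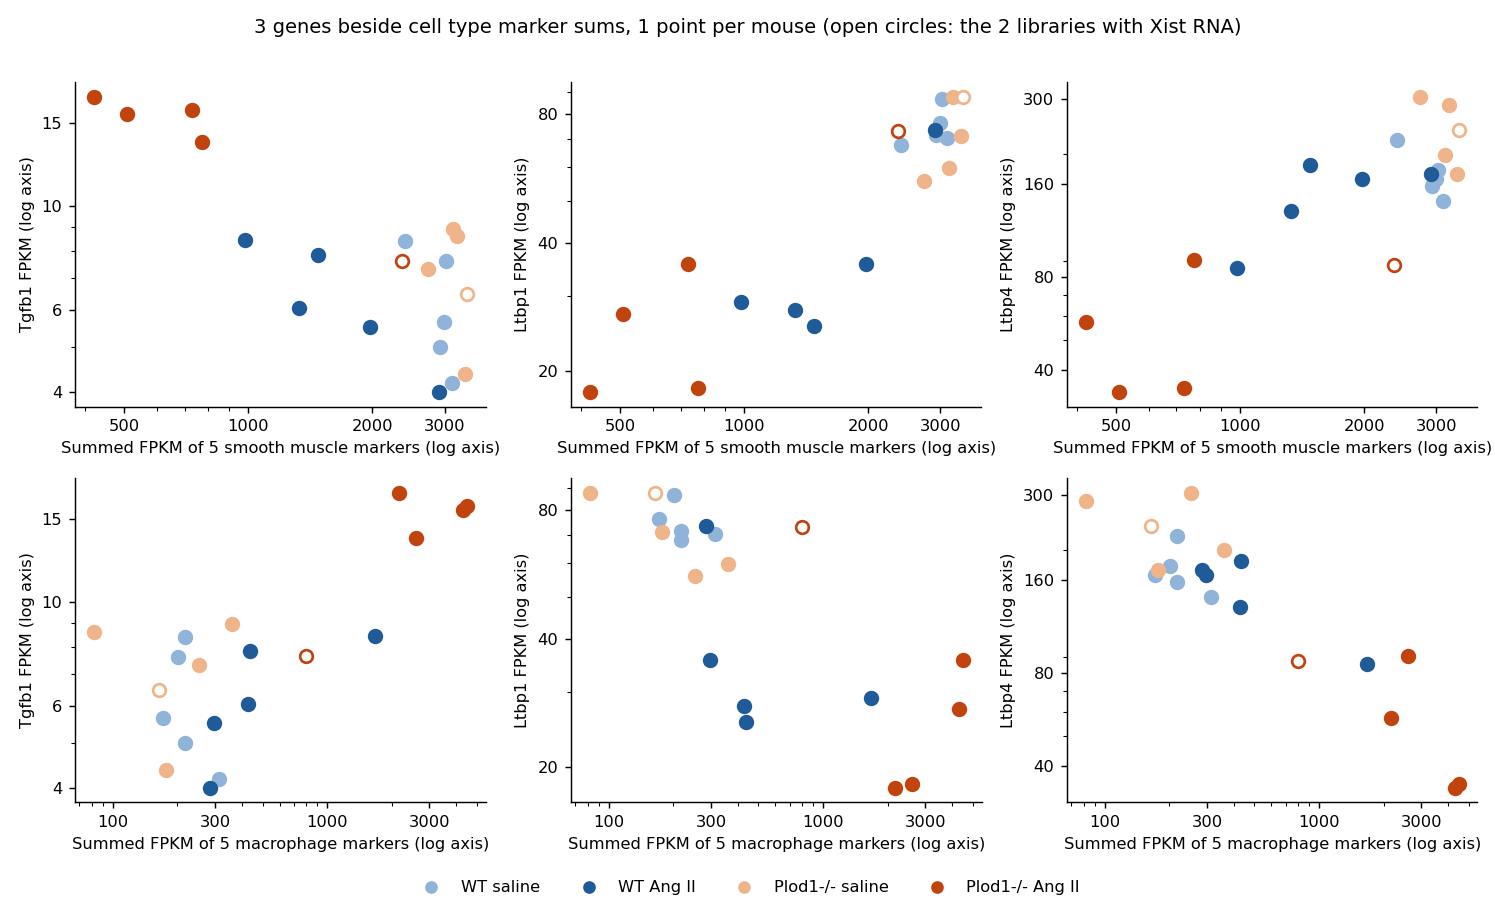
Each point is 1 mouse, with the summed FPKM of 5 smooth muscle markers (top) or 5 macrophage markers (bottom) on the x axis and the FPKM of Tgfb1, Ltbp1 or Ltbp4 on the y axis, all on log axes, and open circles for the 2 libraries with Xist RNA. The Ang II-treated Plod1-/- mice other than replicate 1 lie at smooth muscle sums of 421 to 770 FPKM, with the highest Tgfb1 and low Ltbp1 and Ltbp4.

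The comparison of Ang II-treated mice asked how the genotypes differed once both were infused. Of the 10 genes 2 passed, Tgfb1 with higher and Ltbp4 with lower expression in Plod1-/- mice, while 31.2% of the 12356 genes tested passed. No gene of the 10 had values without overlap between the genotypes, against 15.1% of all genes tested. The median log2 fold change was 0.12 over the 10 genes and 0.117 over all genes tested.

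Tgfb1 averaged 6.38 ± 1.8 FPKM in the WT group and 14 ± 3.76 FPKM in the Plod1-/- group (each SD, n = 5). The WT values were 8.45, 7.85, 5.51, 4.01 and 6.06 FPKM, and 4 of the 5 Plod1-/- mice exceeded all of them. Tgfb1 was 1.02 log2 units higher without LH1 (SE 0.23, limma adjusted p = 0.0102), and 1.20 (adjusted p = 0.00129) without the Xist library. It passed in all 19 alternative analyses, which ranged from 0.88 to 1.20. Ltbp4 averaged 148 ± 40 FPKM in WT mice, with 85.6, 184, 166, 172 and 131 FPKM, and 60.9 ± 27.3 FPKM in Plod1-/- mice (each SD, n = 5). The 1 WT mouse within the Plod1-/- range was replicate 1. Its macrophage (1670 FPKM), neutrophil (192), platelet (97.5), red blood cell (666) and endothelial (207) sums were the highest of its group. Its smooth muscle sum (981 FPKM) was the lowest, and the part of these in its Ltbp4 value was not tested. For Ltbp4 the log2 difference was -1.34 (SE 0.32, limma adjusted p = 0.0123), and -1.49 (adjusted p = 0.00676) without the Xist library.

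Among the genes that did not pass, Tgfb2 had the largest log2 fold change, 0.87 (95% interval 0.06 to 1.67, limma adjusted p = 0.0932). It was 0.54 (adjusted p = 0.12) without the Xist library and 1.08 (adjusted p = 0.0376) without Ang II-treated WT replicate 4. Tgfbr1, which fell under Ang II in both genotypes, had means of 10.6 ± 3.71 FPKM (WT) and 9.98 ± 0.533 FPKM (Plod1-/-; each SD, n = 5), a log2 fold change of -0.03 with a 95% interval from -0.43 to 0.37. Ltbp1 stood at 38.3 ± 20 and 34.4 ± 22.8 FPKM (each SD, n = 5), a log2 fold change of -0.24 with a 95% interval from -1.11 to 0.64. The other 5 genes (Tgfb3, Tgfbr2, Tgfbr3, Ltbp2 and Ltbp3) had log2 fold changes from -0.05 to 0.45, with adjusted p-values from 0.225 to 0.895. Markers differed between these groups as well, with 5 of 5 macrophage markers higher, 2 of 5 platelet markers higher and 2 of 5 smooth muscle markers lower in Plod1-/- mice. The immediate early sum ran from 73.6 to 125 FPKM in WT and from 404 to 1170 FPKM in Plod1-/- mice under Ang II, with 6 of 6 genes higher. All 5 neutrophil and all 5 red blood cell markers were higher (median log2 fold changes 3.39 and 2.61), and all 5 brown adipocyte markers were lower (median -3.13). The mitochondrial share averaged 23.3% in WT and 13.4% in Plod1-/- mice under Ang II. Their part in the difference was not tested. The comparisons share mice, since Ang II-treated WT mice enter both this comparison and that of the WT response.

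Whether the response to Ang II differed between genotypes was tested as an interaction over all 20 mice, in which 2 of the 10 genes and 37.8% of the 13263 genes tested passed. Ltbp4 had an interaction of -1.80 on the log2 scale (SE 0.39, limma adjusted p = 0.00186), from a change of -0.26 in WT and -2.05 in Plod1-/- mice. It passed in all 28 alternative analyses, with values from -2.20 to -1.62. Tgfb1 had an interaction of 0.83 (SE 0.32, limma adjusted p = 0.049), from 0.04 in WT and 0.87 in Plod1-/- mice. This result stood at the threshold and was lost in 13 of 20 analyses that left out 1 mouse, with adjusted p-values from 0.0583 to 0.0939. These were the analyses without WT saline replicates 2, 4 or 5, WT Ang II replicates 3, 4 or 5, Plod1-/- saline replicates 1, 2 or 5, or Plod1-/- Ang II replicates 2, 3, 4 or 5. It was also lost under 6 other settings, with adjusted p-values from 0.0502 to 0.115, while without both Xist libraries it was 0.99 (adjusted p = 0.0153).

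For the other 8 genes a difference of response was not detected, with adjusted p-values from 0.0757 to 0.868. The nearest to the threshold were Tgfb2, with an interaction of 1.06 (95% interval 0.10 to 2.02), and Ltbp3, with -0.51 (95% interval -1.03 to 0.02). Tgfb2 passed without Ang II-treated WT replicate 4 (1.28, adjusted p = 0.0259) or Ang II-treated Plod1-/- replicate 2 (1.21, adjusted p = 0.046), and Ltbp3 without saline-treated Plod1-/- replicate 1 (-0.64, adjusted p = 0.0403) or Ang II-treated Plod1-/- replicate 5 (-0.63, adjusted p = 0.0456). Tgfb3 passed between the treatments in WT mice and not in Plod1-/- mice, and the test of this difference gave 0.88 (95% interval -0.35 to 2.10, limma adjusted p = 0.248). For Tgfbr1 it gave 0.37 (95% interval -0.13 to 0.86), and 0.54 (adjusted p = 0.0261) without Ang II-treated WT replicate 4, and for Ltbp1 -0.17 (95% interval -1.10 to 0.76). All 6 immediate early genes passed this test too (median interaction 4.16), as did 5 of 5 macrophage (2), 5 of 5 neutrophil (3.51), 5 of 5 red blood cell (3.55) and 5 of 5 brown adipocyte markers (-4). Of the platelet markers 4 of 5 passed as higher and of the smooth muscle markers 4 of 5 as lower, and the part of these in the 2 results was not tested. The median interaction was 0.22 over the 10 genes and 0.12 over all genes tested.

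Some of the 10 genes varied together across the mice. The closest pair was Tgfbr2 and Tgfbr3, with a Pearson r of 0.853 on the log2 scale over 20 mice and 0.914 as deviations from the group means. Tgfb2 and Tgfb3 followed each other similarly, with r of 0.784 and 0.81. Tgfbr1 and Ltbp1 had r of 0.806 over all mice and 0.49 within groups, so that much of their likeness lay between the groups. The most opposed pair was Tgfb1 and Ltbp4, with r of -0.661 over all mice and -0.173 within groups. All of these pairs share libraries and groups, and no test was made.

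The 3 genes most like each member among 13262 others, by Pearson r over 20 mice, are given next as a description. Ltbp1 was followed by Lpp (r = 0.978), Cd9 (0.972) and Tspan2 (0.97), and Ltbp4 by Tns2 (0.951), Lamc3 (0.946) and Klhdc8b (0.941). For Tgfb1 the nearest were Vat1 (0.951), Ltbr (0.938) and H2afx (0.932). Tgfb2 had Wdr1 (0.914), Actb (0.904) and Lrrc32 (0.891), the last of which encodes GARP, a cell surface anchor of latent TGF-beta. Around Tgfb3 were Flnc (0.875), Hbegf (0.855) and Pdlim5 (0.851), and around Tgfbr1 Fgl2 (0.958), Bicd1 (0.956) and Plekha1 (0.949). Tgfbr2 was closest to Arel1 (0.915), Lrp1 (0.908) and Cul4b (0.902), and Tgfbr3 to Tapt1 (0.912), Ccdc152 (0.893) and Klhl24 (0.868). Ltbp2 had Sox12 (0.875), Gpc1 (0.874) and Nfatc4 (0.853), and Ltbp3 had Vps37d (0.874), Iglon5 (0.868) and Fance (0.863).

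Other genes of the pathway were examined in 6 lists, described by counts and medians. Over all genes tested, 23.8% rose and 20.1% fell under Ang II in Plod1-/- mice, 16.5% rose and 21.5% fell in WT mice, and 20.8% were higher and 10.4% lower in Ang II-treated Plod1-/- than WT mice. The list on activation of latent TGF-beta held anchors of the latent ligand, such as Nrros, beside activators. Among its 13 tested genes, 7 rose and 1 fell under Ang II in Plod1-/- mice (median log2 fold change 0.80). In WT mice 0 rose and 4 fell (median log2 fold change -0.33), and between Ang II-treated genotypes 8 were higher and 1 lower in Plod1-/- mice (median log2 fold change 0.91). Thbs1 encodes thrombospondin-1, an activator of latent TGF-beta that the study followed up as a partner of CD47. Thbs1 averaged 14.3 ± 9.07 FPKM in saline-treated and 136 ± 46.2 FPKM in Ang II-treated Plod1-/- mice (each SD, n = 5), or 3.34 higher on the log2 scale (SE 0.47, limma adjusted p = 0.00037). In WT mice its mean was 12.5 ± 6.14 FPKM with saline and 6.6 ± 3.78 FPKM with Ang II (each SD, n = 5). For the protein, the study reported a slight increase in WT aortas under Ang II. The response of Thbs1 RNA differed between genotypes by 4.15 on the log2 scale (limma adjusted p = 0.000146). Nrros, which anchors latent TGF-beta on macrophages and microglia, rose by 2.80 log2 units in Plod1-/- mice and was 2.05 log2 units higher in Ang II-treated Plod1-/- than WT mice. Mmp14, a membrane protease, was higher by 1.77 log2 units in Ang II-treated Plod1-/- than WT mice. Itgb5, an integrin subunit that also binds latent TGF-beta, fell by 1.22 log2 units in Plod1-/- mice.

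Among 15 genes that TGF-beta is known to induce, 7 rose and 3 fell under Ang II in Plod1-/- mice (median log2 fold change 0.76), and 9 were higher and 1 lower in Ang II-treated Plod1-/- than WT mice (median log2 fold change 1.51). In WT mice 0 of 14 rose and 10 fell (median log2 fold change -0.78). Lox, which crosslinks collagen and elastin, averaged 19.4 ± 13.1 FPKM in Ang II-treated WT and 153 ± 83.6 FPKM in Ang II-treated Plod1-/- mice (each SD, n = 5), or 2.96 higher on the log2 scale (limma adjusted p = 0.00175). Col3a1, a fibrillar collagen gene, rose by 3.07 log2 units in Plod1-/- mice, and Col1a1 and Il11 were higher by 3.41 and 1.51 log2 units in Ang II-treated Plod1-/- than WT mice. Nox4, which encodes an oxidase of smooth muscle, fell by 1.74 log2 units in Plod1-/- mice. The list held genes that moved in both directions, and over all genes 23.8% rose and 20.1% fell in Plod1-/- mice and 16.5% and 21.5% in WT mice. Between Ang II-treated genotypes 20.8% of all genes were higher and 10.4% lower in Plod1-/- mice.

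Among 12 matrix partners of the latent complex, 0 rose and 9 fell under Ang II in WT mice (median log2 fold change -0.78), and 3 rose and 4 fell in Plod1-/- mice (median log2 fold change -0.25). The shares over all genes were 16.5% higher and 21.5% lower in WT mice and 23.8% and 20.1% in Plod1-/- mice, so that the Plod1-/- count lay near that of all genes. Fbln5, which with Ltbp4 takes part in elastic fiber assembly, fell by 1.66 log2 units in Plod1-/- mice, from 100 ± 23.6 to 31.1 ± 7.59 FPKM (each SD, n = 5). Vasn, a binder of TGF-beta, fell by 1.27 log2 units. Mfap5, a microfibril protein gene, rose by 1.36 log2 units. Between Ang II-treated genotypes 4 of the 12 were higher and 1 was lower in Plod1-/- mice (median log2 fold change 0.23), beside 20.8% and 10.4% of all genes. Mfap5, Fbn1 (fibrillin-1) and Emilin1 were among those higher, by 1.44, 1.56 and 0.84 log2 units. Among 10 other receptors and co-receptors of the superfamily, 1 rose and 7 fell in WT mice (median log2 fold change -0.61), and 1 rose and 5 fell in Plod1-/- mice (median log2 fold change -0.22). Over all genes 21.5% fell in WT and 20.1% in Plod1-/- mice. The bone morphogenetic protein receptor genes Bmpr1a, Bmpr1b and Bmpr2 had log2 fold changes of -1, -0.93 and -0.47 in Plod1-/- mice. Between Ang II-treated genotypes 1 was higher (Cd109, log2 fold change 0.88) and 1 lower (Acvrl1, -0.35), and Acvr1b had a log2 fold change of 0.80 that did not pass.

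Among 15 SMAD genes and regulators, 2 rose and 1 fell under Ang II in Plod1-/- mice (median log2 fold change -0.09), and 1 rose and 3 fell in WT mice (median log2 fold change -0.28). Thus 3 of 15 passed in Plod1-/- mice, beside 43.8% of all genes, and 4 of 15 in WT mice, beside 38%. Tgif1, a repressor of SMAD2 targets, and Smad2 rose by 0.83 and 0.59 log2 units in Plod1-/- mice, and the ubiquitin ligase gene Smurf2 fell by 0.36 log2 units. In Ang II-treated mice 4 were higher and 0 lower in Plod1-/- than WT mice (median log2 fold change 0.39), among them Tgif1 by 0.93 and the feedback inhibitor genes Smad7 and Skil by 0.84 and 0.59 log2 units. Among 13 activins, bone morphogenetic proteins and related genes, 3 rose and 4 fell in Plod1-/- mice (median log2 fold change -0.17), and 4 were higher and 0 lower between Ang II-treated genotypes (median log2 fold change 0.21). Over all genes 23.8% rose and 20.1% fell in Plod1-/- mice and 20.8% were higher between Ang II-treated genotypes. Gdf15 and Fst, which encodes the activin trap follistatin, rose by 1.65 and 1.23 log2 units in Plod1-/- mice, and Bmp4 fell by 0.79 log2 units. Between the Ang II-treated genotypes Gdf15, Fst and Gdf11 were higher by 1.73, 1.02 and 0.52 log2 units. In WT mice 0 of 12 rose and 3 fell (median log2 fold change -0.12). Between saline-treated genotypes the 6 lists held 2 genes that were higher and 5 that were lower in Plod1-/- mice, beside 3.33% and 3.23% of all genes.

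**Figure D5:**
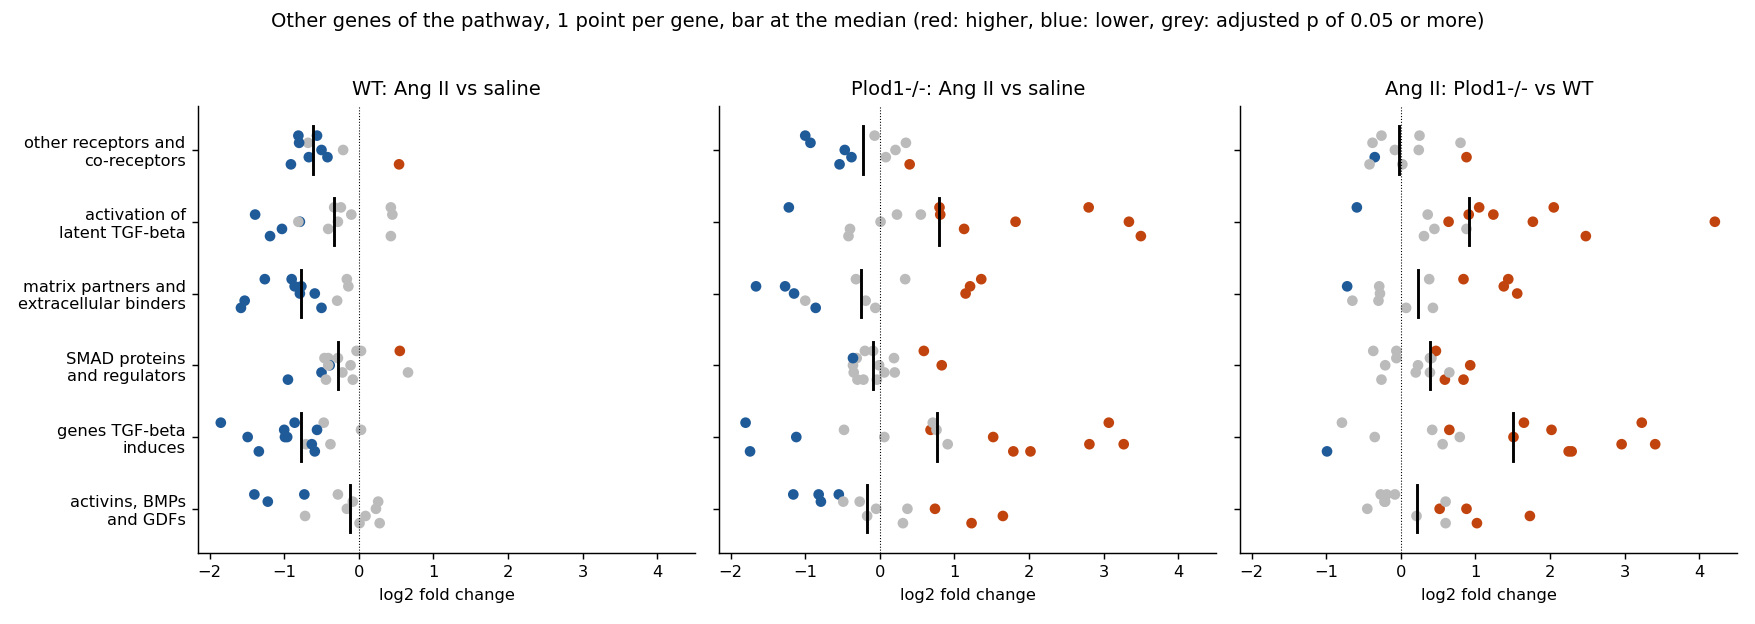
Each point is the log2 fold change of 1 gene of 6 pathway lists in 3 comparisons, and the black bars are the list medians. The lists on activation of latent TGF-beta and on genes TGF-beta induces have medians of 0.80 and 0.76 under Ang II in Plod1-/- mice and of -0.33 and -0.78 in WT mice.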

How the data were processed

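RNA of 20 abdominal aortas was sequenced. According to the study's methods the authors prepared libraries with the TruSeq RNA kit v2 (a kit that does not mark strand), aligned reads with HISAT2 and computed FPKM with stringtie, cuffquant and cuffnorm. The submitters' processing notes name HISAT2 2.1.0, Bowtie2 2.2.3, HTSeq 0.6.0 and the build mm10, and the labels' extraction text also describes array labeling. The annotation release is not given in the sources used here. The authors deposited normalized FPKM for 43422 Ensembl gene identifiers, of which GENCODE mouse release 21 (GRCm38) named 43226. Low FPKM values lay near whole multiples of a unit taken as 1 read (90.4% within 0.1 of a whole read over 5166 genes). The unit was estimated from the same values, so this share is not an independent check. Their spacing gave relative but not total depth, so no interval or detection limit for counting error is given.

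FPKM was transformed to log2(FPKM + 1) and fitted with limma 3.58.1 in R 4.3.3 (eBayes with a variance trend), on genes that reached 1 FPKM in 5 or more of the mice fitted. The study's methods name edgeR, which was not used here because it requires counts. Two-sided tests were adjusted by the Benjamini-Hochberg method over all genes tested. The interaction used all 20 mice. No gene of the 10 fell below the filter, so the exact permutation test planned for such genes was not needed. The fit was tested on simulated data with known changes. Replicate numbers come from the labels, which state no pairing, and replicates are mice of 1 group. P-values weigh a difference of group means against the spread between these mice. Groups come from the labels. The text names the 10 genes, in each pathway list the 3 genes with the smallest p in Plod1-/- mice and the 3 between Ang II-treated genotypes, the 3 genes most like each of the 10, Plod1, Xist, Y-linked genes, Thbs1 and markers. The 10 genes, the lists and the tests were chosen with earlier results of these data known. Alternatives comprised no filter, no variance trend, a pseudocount of 0.1, a block for replicate number, arrayWeights (a weight for each mouse), quantile normalization, mitochondrial genes left out with FPKM rescaled, all 4 groups in 1 fit, both Xist libraries left out and each mouse left out in turn. Overlaps of the 10 genes with other genes are not reported here. Promoters are RefSeq windows of 250 bases. Tables and figures were made with Python 3.11.15, pandas 2.3.3, numpy 2.4.6 and matplotlib 3.10.9.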

Additional observations from a re-analysis of the deposited data

Results flagged for a closer look

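In 3 of the 40 groups of 5 mice examined (10 genes in 4 groups), 1 mouse lay far from the other 4 by Dixon's test, which chance gives in about 1 of 20 groups. Tgfb2 was at 8.48 FPKM in Ang II-treated WT replicate 4, where the next highest mouse was at 3.89 FPKM. In Plod1-/- replicate 1 under Ang II it reached 22.6 FPKM, where the next was at 7.98 FPKM. Ltbp1 was at 73.4 FPKM in Ang II-treated WT replicate 4, where the next was at 35.7 FPKM. Ang II-treated WT replicate 4 also had the highest smooth muscle sum of its group (2910 FPKM) and the lowest mitochondrial share (14.6%). Ang II-treated Plod1-/- replicate 1, a library with Xist RNA, had the highest smooth muscle sum (2370 FPKM) and the highest mitochondrial share (21.1%) of its group. The part of these in the values was not tested.

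The response to Ang II differed between genotypes in 2 of the 10 genes by the interaction test, beside 37.8% of all 13263 genes tested. The difference was 0.83 on the log2 scale for Tgfb1 (limma adjusted p = 0.049) and -1.80 for Ltbp4 (limma adjusted p = 0.00186). The result for Tgfb1 was lost in 19 of 28 alternative analyses, that for Ltbp4 in 0 of 28. All 5 Plod1-/- mice under Ang II were below all 5 saline-treated Plod1-/- mice for Ltbp4, whereas the WT groups overlapped.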

How the results depend on the processing

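The 10 genes gave 50 values, which were recomputed 1030 times under the alternatives, and 922 of these kept their direction and their side of the threshold. Of the rest 50 lost the threshold, 18 gained it and 40 changed sign, and 0 of the 40 had an adjusted p below 0.05. The number of genes of the 10 that passed in WT mice was 5, and 2 with no filter or with the replicate block. Between saline-treated genotypes it was 1, and 0 with no filter, with the replicate block or with all 4 groups in 1 fit. Between Ang II-treated genotypes it was 2, and 5 with arrayWeights. For the interaction it was 2, and 1 with a pseudocount of 0.1, no filter, the replicate block, no variance trend, quantile normalization or mitochondrial genes left out, and 5 with arrayWeights. Over all genes the counts were 4560 in WT mice, and 7734 with arrayWeights. Between Ang II-treated genotypes they were 3849, and 2384 with the replicate block and 7827 with arrayWeights. Between saline-treated genotypes they were 786, and 143 with no filter, 228 with the replicate block, 292 without both Xist libraries and 169 with all 4 groups in 1 fit. For the interaction they were 5017, and 7739 with arrayWeights. The cause of these shifts was not tested.

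With each mouse left out in turn, the number of the 10 genes that passed ran from 2 to 5 in WT mice, from 0 to 2 between saline-treated genotypes and from 1 to 3 for the interaction. Over all genes it ran from 2577 to 6561 in WT mice, from 2251 to 4652 between Ang II-treated genotypes and from 153 to 695 between saline-treated genotypes. The counts over all genes moved by more than 1.5 times without Ang II-treated WT replicates 2, 3 or 5 in WT mice (2589, 2939 and 2577). Between Ang II-treated genotypes they did so without WT replicates 2, 3 or 5 (2498, 2251 and 2558) or Plod1-/- replicates 3 or 4 (2381 and 2294). Between saline-treated genotypes they did so without WT replicates 2 or 4 (179 and 314) or Plod1-/- replicates 2, 3, 4 or 5 (181, 265, 153 and 292). The log2 values that changed sign without 1 mouse ran as follows. In WT mice Tgfb1 ran from -0.067 to 0.17 and Tgfbr2 from -0.20 to 0.075. In Plod1-/- mice Tgfb2 ran from -0.13 to 0.36 and Tgfbr3 from -0.16 to 0.13. Between Ang II-treated genotypes Tgfb3 ran from -0.036 to 0.63, Tgfbr1 from -0.12 to 0.13, Tgfbr3 from -0.20 to 0.11, Ltbp1 from -0.55 to 0.025 and Ltbp3 from -0.087 to 0.13. Between saline-treated genotypes Ltbp1 ran from -0.14 to 0.025. For the interaction Tgfbr3 ran from -0.049 to 0.27, Ltbp1 from -0.49 to 0.086 and Ltbp2 from -0.30 to 0.083. With arrayWeights, signs changed for Tgfb2 (-0.015) and Tgfbr3 (0.11) in Plod1-/- mice, for Tgfbr1 (0.15) and Tgfbr3 (0.24) between Ang II-treated genotypes and for Ltbp2 (0.18) in the interaction. Without both Xist libraries they changed for Tgfb2 (-0.11) and Tgfbr3 (0.13) in Plod1-/- mice and for Tgfb3 (-0.036) and Tgfbr3 (0.093) between Ang II-treated genotypes. With mitochondrial genes left out Ltbp3 was -0.069 between Ang II-treated genotypes, and with quantile normalization Tgfbr3 was -0.033 in the interaction.

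With quantile normalization the median over all genes shifted on the log2 scale from 0.117 to -0.026 between Ang II-treated genotypes, from 0.053 to -0.055 in Plod1-/- mice and from 0.12 to -0.009 in the interaction. The share of higher among the genes that passed was 66.7%, 54.3% and 62.8% and became 49.3%, 42.1% and 49.2%, and with mitochondrial genes left out it was 55.1%, 46.4% and 52.7%, and in WT mice it went from 43.5% to 50.4%. Mice with the same replicate number did not deviate together (r from -0.332 to 0.421 over 20 pairs of mice, above 0.1 in 5, and highest with the own number in 3), so the replicate block adds only a shared number. Total depth is unknown and sets a limit for low values that could not be computed.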
